A study of Mus musculus with 6 samples.

Results

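The clustered protocadherins are 58 genes of 22274 in the deposited table, of which 14 belong to the alpha cluster, 22 to the beta cluster and 22 to the gamma cluster. The rule takes every gene of the family by name (Pcdha, Pcdhac, Pcdhb, Pcdhga, Pcdhgb or Pcdhgc with a number) and uses no measured value, but the family was picked with earlier results of these data known. The data are messenger RNA sequencing of whole testes of mice labelled day 9, with 3 libraries from controls and 3 from mice labelled as conditional Dcaf2 knockouts. The knockout mice came from a cross of Dcaf2 fl/fl mice with Stra8-Cre mice. DCAF2 is the substrate receptor of a CRL4 ubiquitin ligase, and Stra8-Cre drives recombination in spermatogonia, so the somatic cells of these testes are not expected to lose the gene. The labels give the controls no genotype beyond "control", and they leave unstated whether the numbered libraries come from separate animals. The p-values therefore measure only the spread between libraries, part of which may be technical.

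Clustered protocadherins are cadherin-like adhesion proteins that bind identical copies of themselves on neighbouring cells, and they are best known for giving neurons distinct surface identities. The genes lie in tandem on the same chromosome. Each alpha or gamma gene has a large variable first exon of its own, with its own promoter, which is spliced to constant exons that all genes of the cluster share. Beta genes have a single exon and no constant part. Promoter choice depends on CTCF and cohesin, which loop an enhancer to a promoter, and on DNA methylation, in which DNMT3B and SMCHD1 take part. The C-type genes (Pcdhac1, Pcdhac2, Pcdhgc3, Pcdhgc4 and Pcdhgc5) stand at the 3′ end of their clusters, and in neurons they are less subject to random choice than the other genes. Their part in the testis is far less studied than that in the brain.

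The names in the deposited table could not be used to find the genes. Its Symbol column gave the expected name, in upper or lower case, for 39 members, and another name or a dash for 19. For example, Pcdhb16 stood there as PCDHB8, and 4 beta genes shared the name Pcdh3. Only 12 rows matched the name pattern as written, of which 10 were members by their Ensembl ID. The members were therefore taken by the reference symbol of each Ensembl ID. Both ENSMUSG00000007440 and ENSMUSG00000102206 carried the symbol Pcdha11. Another 3 rows were named Pcdha4, PCDHA6 or Pcdha7 in the table but belong to Gm42416, Gm37013 and Gm37388, annotated transcripts that join part of an alpha exon to gamma constant exons. Gm42416 had 5 counts in knockout library 1 and 0 elsewhere, and the other 2 were at 0 in every library.

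The shared exons decide how far a value belongs to a single gene. In the GENCODE M21 annotation, used here for lengths only, all 14 alpha genes shared 2860 bases, which is 48.6% to 54.9% of the longest coding transcript of each. All 22 gamma genes shared 2116 bases, and the shared part was 13.4% to 66.8% of the longest coding transcript, with a median of 44.9%. For beta genes it was at most 9.67%. A read from the constant exons cannot be told apart by its sequence, so such reads were divided among genes by the authors' quantification. Counts of single alpha and gamma genes thus depend on that division, while the sum over a cluster does not.

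The count and the FPKM of a gene together give the transcript length by which the authors' software scaled it. This implied length could be computed, in at least 1 library with an FPKM of 0.5 or more, for 15 beta and 20 gamma genes. For 13 beta and 16 gamma genes its median over libraries was within 3% of the longest annotated coding transcript. It was 4687 bases for Pcdhgc3, whose full-length transcript has 4687 bases. Pcdhgc4 stood apart, with an implied length of 2291 to 2670 bases in the 6 libraries against 5024 bases for its full-length transcript. Its annotation also holds a short coding transcript of 2272 bases, of which only 153 bases are private and 93.3% are constant exons. If the remaining counts lay on its other annotated transcripts, this short transcript held between 96.9% and 98.5% of the counts of Pcdhgc4 in control library 1 and between 44.2% and 72.8% in knockout library 3. Pcdhga1, Pcdhga4, Pcdhga7, Pcdhb8 and Pcdhb22 were also scaled by lengths under their longest coding transcript.

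**Figure D1:**
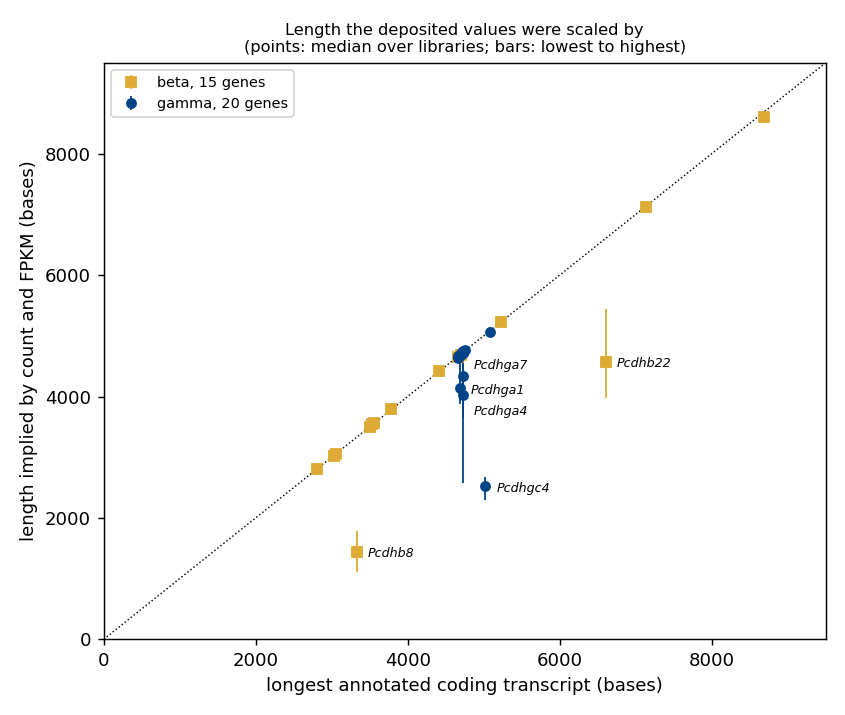
Length implied by count and FPKM (vertical axis, bases) against the longest annotated coding transcript (horizontal axis, bases) for 15 beta and 20 gamma genes; points are medians over libraries, bars run from the lowest to the highest library, and the dotted line marks equality. Most genes lie on the line, and Pcdhgc4 lies at 2521 bases against 5024.

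Libraries held 15407007 to 18372964 counts. The Dcaf2 transcript itself, listed as Dtl, was at 42.6, 50.3 and 77.4 CPM (counts scaled to a fixed library total with edgeR's TMM factors) in controls, against 41.7, 43.8 and 51.5 CPM in knockouts, and the groups overlapped (log2 fold change -0.31, edgeR adjusted p = 0.281). It was called lower with control library 1 left out (-0.51, adjusted p = 0.0321), and stood at -0.02 with control library 3 left out. Whole-gene counts would also include any transcripts that lack the deleted part. Whether such transcripts were present was not tested. Control library 1 stood apart by transcript length: genes with an implied length over 5500 bases were lower there than in the other 2 controls, with a median log2 difference of -0.45, and genes under 1000 bases were higher, by 0.44. In control library 2 the same medians were 0.40 and -0.33. In the knockout libraries they lay between -0.104 and 0.0775. The part of this trend in the results below was examined by removing it in the fits of single genes, as given beside them. It was not removed from the cluster sums. In whole tissue, fewer cells of a type and less RNA per cell cannot be told apart.

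The gamma cluster held most of the signal, with 84.1% to 85.5% of all counts of the 58 genes in each library, against 13.8% to 15.4% for beta and 0.372% to 0.689% for alpha. Levels between genes are compared on the deposited FPKM, which is per length. Pcdhgc3 had the highest mean, at 29.2 FPKM over the 6 libraries, and 14.1% of all genes in the table were higher. Pcdhgc4 followed at 16.1 FPKM, but it was scaled by a length near that of its short transcript. The order held in the knockouts (35.9 ± 1.55 and 9.30 ± 2.70 FPKM, SD, n = 3) but not in the controls (22.4 ± 4.81 and 23.0 ± 19.8 FPKM), where Pcdhgc4 had 44.6 FPKM in control library 1 against 16.9 for Pcdhgc3. The next were Pcdhgb6 at 2.94, Pcdhga10 at 2.71 and Pcdhga7 at 2.07 FPKM, and Pcdhgc5 was lowest of the gamma genes at 0.202. The highest beta gene was Pcdhb17 at 1.43 FPKM, and the highest alpha gene was Pcdhac2 at 0.0883.

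**Figure D2:**
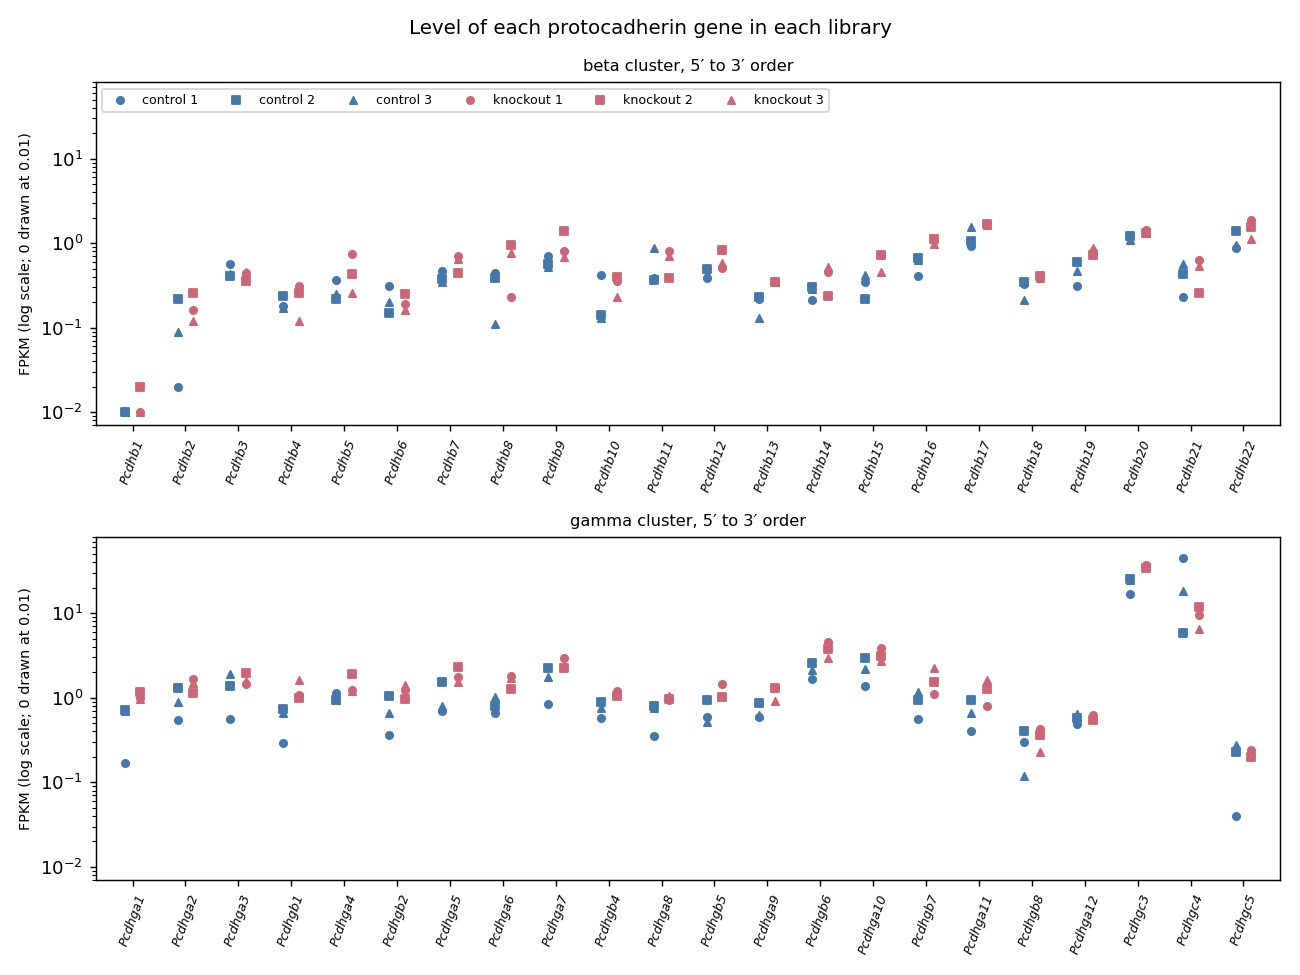
FPKM of each beta gene (upper panel) and gamma gene (lower panel) in each library on a log axis, in their order along the cluster; blue marks controls, red marks knockouts, and the shape gives the library number. Pcdhgc3 and Pcdhgc4 have the highest means, and control library 1 (blue circles) is the lowest control for 18 of 22 gamma genes on this scale.

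Summed over the gamma cluster, the level was higher in the knockouts. The sum was 229, 242 and 240 CPM in controls, against 348, 334 and 325 CPM in knockouts, or 237 ± 6.79 and 336 ± 11.9 CPM (mean ± SD, n = 3 each). The groups did not overlap, and the ratio of the means was 1.42, or 0.50 on the log2 scale. No test was run on a sum over members. On the deposited FPKM, where Pcdhgc4 weighs more through its short implied length, the log2 ratio of the gamma sums was 0.23. In summed CPM the beta cluster moved by a similar amount, from 40.5 ± 3.13 to 60.3 ± 3.2 CPM, a ratio of 1.49. On FPKM its log2 ratio was 0.52, above that of the gamma sums. Its sums were 36.9, 42.5 and 42.1 CPM in controls, against 63.8, 59.5 and 57.5 CPM in knockouts, again without overlap. The alpha cluster had 1.85, 1.73 and 1.44 CPM in controls, against 2.15, 1.47 and 1.79 CPM in knockouts, and its groups overlapped.

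Of the 42 genes that could be tested, 7 rose in the knockouts and 0 fell (edgeR's quasi-likelihood test, Benjamini-Hochberg adjusted p under 0.05). Over all 14424 tested genes, 11.1% rose and 13.9% fell. Among all tested genes with an implied length of 4000 to 5500 bases, the range of most gamma transcripts, 21.5% rose, a share close to the 5 of 22 gamma genes (22.7%). The beta cluster had 2 of 20, which is near the background. At an unadjusted p under 0.05, where 39.1% of all tested genes lay, there were 16 of 22 gamma genes and 7 of 20 beta genes. The median log2 fold change was 0.73 over the gamma genes and 0.57 over the tested beta genes, beside 0.03 over all tested genes and 0.16 over those of 4000 to 5500 bases. The log2 fold change was above 0 for 39 of the 42, against 52.8% of all tested genes. The groups did not overlap, with the knockouts higher, for 22 of the 42, against 22.5% of all tested genes, and with the knockouts lower for 0, against 22.1%. For the signs, the overlaps and the unadjusted p, no background by transcript length was computed. Of the 42, 35 reached the count minimum in all 6 libraries, and 5 reached it in all knockouts but not in all controls.

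**Figure D3:**
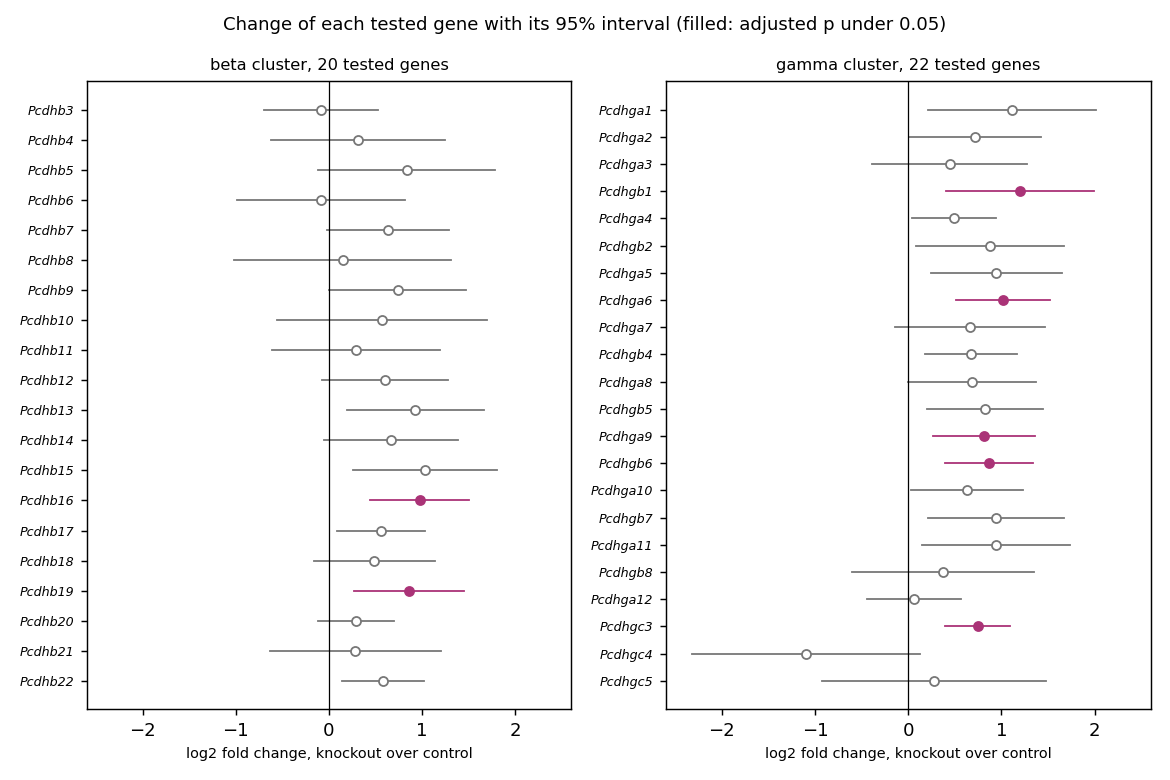
Log2 fold change, knockout over control, of the 20 tested beta genes (left) and the 22 gamma genes (right), with 95% intervals from edgeR; filled points passed the threshold of 0.05 on the adjusted p. The values lie above 0 for all but Pcdhb3, Pcdhb6 and Pcdhgc4, and 7 genes passed.

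Pcdhgc3, the C-type gamma gene with broad expression outside the brain, had 76.8, 120 and 112 CPM in controls, against 179, 167 and 172 CPM in knockouts. All 3 knockouts were above every control, and control library 1 was the lowest. It rose 1.68-fold (0.74 ± 0.155 SE on the log2 scale, edgeR adjusted p = 0.0101). Its 95% interval was 0.39 to 1.09. This call was kept under all 15 alternatives, with log2 fold changes from 0.55 (without control library 1) to 0.86 and an adjusted p of at most 0.0491.

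Pcdhgc4 varied widely among the controls, and its mean was lower in the knockouts. It had 1878, 264 and 706 counts in controls, against 372, 533 and 267 in knockouts, or 99.1, 14.7 and 42.4 CPM against 24.2, 31.3 and 17.7 CPM. The controls spanned the whole range of the knockouts, and control library 1 was far above the rest. At an edgeR adjusted p of 0.167, its log2 fold change of -1.09 (SE 0.542) was not called. Leaving out control library 2 gave -1.54, which was (adjusted p = 0.0108). Without control library 1 it was -0.24.

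The share of gamma counts given to Pcdhgc4 was 43.2% in control library 1, 17.7% in control library 3 and 5.46% to 9.38% in the other 4 libraries. The whole gamma sum did not show this spread: control library 1 differed from control library 2 by 229 against 242 CPM. Without Pcdhgc4, the gamma sum was 130, 227 and 198 CPM in controls, against 324, 302 and 307 CPM in knockouts. The ratio was then 1.68, or 0.75 on the log2 scale, and 0.55 without control library 1 as well. Among the counts outside Pcdhgc4, Pcdhgc3 held 52.9% to 59.0%, the 12 A-type genes 25.6% to 31.2% and the 7 B-type genes 13.7% to 16.6% in each library. Controls and knockouts overlapped in the shares of Pcdhgc3 and of the A type. The B-type share was 13.71% to 15.44% in controls and 15.46% to 16.58% in knockouts, so the groups all but met. Control library 1 had the lowest CPM of the controls for 19 of the 22 gamma genes and 7 of the 20 tested beta genes. There, Pcdhgc4 took more counts where 21 other gamma genes together had fewer, and this was also the library with fewer counts on long transcripts. How far either bears on the other was not tested.

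**Figure D4:**
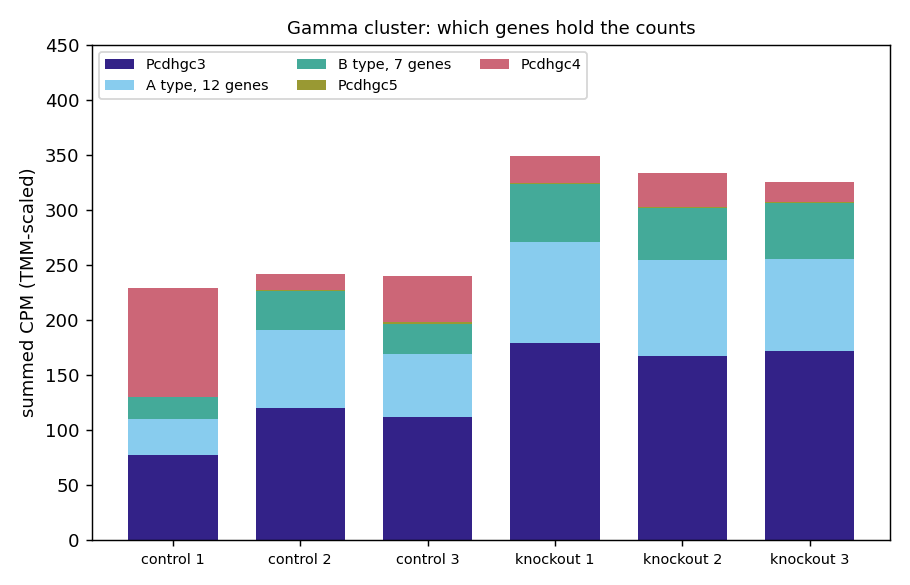
Summed CPM of the gamma cluster in each library, split into Pcdhgc3, the 12 A-type genes, the 7 B-type genes, Pcdhgc5 and Pcdhgc4. The bars reach 229 to 242 CPM in the controls and 325 to 348 CPM in the knockouts, and Pcdhgc4 takes 43.2% of the bar of control library 1.

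Pcdhgc5, the last gene of the cluster, had 4, 20 and 22 counts in controls, against 18, 16 and 16 in knockouts. Apart from the low value in control library 1 the groups were alike in range, and the log2 fold change of 0.28 had a 95% interval of -0.93 to 1.48. It turned to -0.23 without control library 1.

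Of the 12 A-type genes, Pcdhga6 and Pcdhga9 rose and 10 did not pass the threshold, beside 11.1% of all tested genes that rose. Like all A- and B-type genes, they encode adhesion proteins that differ in the extracellular part and share the cytoplasmic end. Pcdhga6 had 3.06, 3.85 and 4.63 CPM in controls, against 8.78, 6.17 and 8.37 CPM in knockouts, and no knockout reached down to a control. It rose 2.02-fold (SE 0.224 on the log2 scale, edgeR adjusted p = 0.013). With knockout library 1 or 3 left out it was not called (adjusted p = 0.0627 and 0.0521). Pcdhga9 had 2.74, 4.13 and 2.82 CPM in controls, against 6.31, 6.28 and 4.45 CPM in knockouts. All knockouts were above all controls, and knockout library 3 lay nearest to them (1.76-fold, edgeR adjusted p = 0.0391). It was not called with total-count scaling (adjusted p = 0.0505), nor with control library 1 or 3 left out (0.0603 and 0.125), nor with knockout library 1 or 2 left out (0.137 and 0.14).

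Among the A-type genes that did not pass, Pcdhga1, the first gene of the cluster, had the largest difference, with 0.791, 3.01 and 2.58 CPM in controls, against 4.68, 4.99 and 4.12 CPM in knockouts. Its log2 fold change of 1.12 had a 95% interval of 0.22 to 2.02 (edgeR adjusted p = 0.0695), and the groups did not overlap. It passed with DESeq2 (adjusted p = 0.0301), limma-voom (0.0454), the length trend removed (0.0477) and without control library 1 or 2 (0.0418 and 0.0387). Pcdhga10, the A-type gene with the highest level, had 6.28, 14.0 and 10.04 CPM in controls, against 18.7, 15.2 and 13.0 CPM in knockouts, with overlap. Its log2 fold change was 0.63 (edgeR adjusted p = 0.112), and of the 15 alternatives it passed with control library 2 left out (0.93, adjusted p = 0.0234). Pcdhga12, the A-type gene nearest to the C-type genes, was named after its values were seen, for the smallest difference. It stood at 2.43, 2.95 and 3.19 CPM against 3.19, 2.82 and 2.92 CPM, with overlap, a log2 fold change of 0.06 and a 95% interval of -0.44 to 0.57. With Pcdhga12, the 8 A-type genes not described above had mean levels of 2.92 to 9.00 CPM, log2 fold changes of 0.06 to 0.95 and edgeR adjusted p values of 0.0533 to 0.861. In 3 of these 8 the groups did not overlap, with the knockouts higher, and over all 12 A-type genes this held for 6. Among all tested genes it held for 22.5%.

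Of the 7 B-type genes, Pcdhgb1 and Pcdhgb6 rose and 5 did not pass, beside 11.1% of all tested genes that rose. Pcdhgb6 had the highest level of the A- and B-type genes, with 7.70, 12.1 and 9.62 CPM in controls, against 21.5, 18.2 and 14.0 CPM in knockouts. The groups did not overlap, and it rose 1.83-fold (0.87 ± 0.208 SE on the log2 scale, edgeR adjusted p = 0.0174). Leaving out control library 3 (adjusted p = 0.0666) or knockout library 1 or 2 (0.0787 and 0.0647) ended the call. Pcdhgb1 had 1.32, 3.46 and 3.01 CPM in controls, against 5.14, 4.81 and 7.90 CPM in knockouts. Its groups did not overlap, and it rose 2.3-fold (edgeR adjusted p = 0.0368). The adjusted p was over the threshold with control library 3 left out (0.0816), and with each knockout library left out in turn (0.081, 0.0712 and 0.138). Pcdhgb8, annotated as a polymorphic pseudogene and listed with a dash in the table, had 26, 33 and 9 counts in controls, against 31, 30 and 17 in knockouts, with overlap. Pcdhgb8 is named here for its annotation. With it, the 5 B-type genes not called had mean levels of 1.44 to 5.96 CPM, log2 fold changes of 0.38 to 0.94 and edgeR adjusted p values of 0.0512 to 0.555. Their lowest adjusted p thus lay just over the threshold. In 2 of the 5 the groups did not overlap, with the knockouts higher, beside 22.5% of all tested genes.

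The beta genes were all low, at 0.00333 to 1.43 FPKM on average, and since they hold no constant exons their counts depend less on how reads were divided. Near-identical stretches between beta genes can still share reads. Pcdhb16 had 39, 63 and 53 counts in controls, against 89, 103 and 80 in knockouts, or 2.06, 3.51 and 3.19 CPM against 5.79, 6.05 and 5.31 CPM. The groups were well apart, and it rose 1.96-fold (0.97 ± 0.236 SE on the log2 scale, edgeR adjusted p = 0.0186). Leaving out control library 3 or knockout library 3 put the adjusted p just over the threshold (0.0504 and 0.0505), and leaving out knockout library 1 or 2 gave 0.0689 and 0.0788. Pcdhb19 had 40, 76 and 54 counts in controls, against 88, 90 and 96 in knockouts. It rose 1.81-fold (0.86 ± 0.262 SE on the log2 scale, edgeR adjusted p = 0.0418). Total-count scaling (0.053), the replicate number as a block (0.0523), leaving out control library 1 or 3 (0.0526 and 0.109) and leaving out each knockout library (0.113, 0.0967 and 0.13) all ended this call.

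Pcdhb15 had the largest beta difference, with 0.95, 0.613 and 1.14 CPM in controls, against 2.08, 2.11 and 1.33 CPM in knockouts. The groups did not overlap, but at an edgeR adjusted p of 0.0555 its log2 fold change of 1.03 (95% interval 0.26 to 1.81) was not called. It passed with the length trend removed (adjusted p = 0.0421). The 3 other beta genes of highest level, Pcdhb17, Pcdhb20 and Pcdhb22, each had knockouts above all controls. Pcdhb17 had 4.22, 4.96 and 7.03 CPM against 7.74, 8.16 and 7.90 CPM (edgeR adjusted p = 0.0816, passing with control library 3 left out, at 0.0384). Pcdhb22 had 4.01, 5.52 and 4.81 CPM against 7.999, 7.16 and 6.24 CPM (adjusted p = 0.057, passing with control library 2 left out, at 0.0443). Pcdhb20 had 4.06, 4.29 and 3.73 CPM against 5.14, 4.87 and 4.78 CPM, a log2 fold change of 0.29 (adjusted p = 0.264).

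Pcdhb3 and Pcdhb6 were the beta genes with a log2 fold change below 0, and in both the groups overlapped. Pcdhb3 had 39, 28 and 26 counts against 26, 24 and 27, a log2 fold change of -0.09 with a 95% interval of -0.70 to 0.52. Pcdhb6 had 21, 9 and 12 counts against 11, 15 and 9, also at -0.09. Both values turned above 0 without control library 1. The 12 other tested beta genes had mean levels of 0.793 to 2.95 CPM, log2 fold changes of 0.15 to 0.92 and edgeR adjusted p values of 0.0659 to 0.854. In 5 of these 12 every knockout was above every control, beside 22.5% of all tested genes. Along the beta cluster, the untested genes Pcdhb1 and Pcdhb2 stood at its 5′ end, with 1 and 41 counts over all 6 libraries.

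Alpha genes were close to the limit of detection. None of the 14 had a count in all 6 libraries, none was tested, and the whole cluster had 35, 31 and 24 counts in controls, against 33, 25 and 27 in knockouts. Pcdha1, Pcdha6, Pcdha7, Pcdha8 and Pcdhac1 had a count of 0 in every library, which allows up to 0.158 to 0.199 CPM per library (3 counts, covering counting error only). Pcdhac2, the C-type gene at the 3′ end, had the most, with 0, 25 and 5 counts in controls, against 7, 4 and 11 in knockouts. Other genes appeared in some libraries and not in others: Pcdha2 had 20 counts in control library 1 and 0 elsewhere, and Pcdha5 had 11 in control library 3, 16 in knockout library 1 and 0 elsewhere. With 24 to 35 counts per library for the whole cluster, no difference between the groups was seen. None was tested, and counts this low could hide a small one. The log2 ratio of the means was 0.11, with -0.04 to 0.24 when each library was left out in turn.

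The number of clustered genes called moved with the libraries used. DESeq2 called 13 and limma-voom 11, all higher and each including all 7, where 11.9% and 11.5% of all tested genes rose. Removing a trend on transcript length from each library, an alternative chosen after seeing the data, gave 11, again with all 7, where 14.4% of all tested genes rose, and the median over the tested members was 0.57. Without control library 1, 6 genes were called higher, 5 of them among the 7, where 16.4% of all tested genes rose, and the median over the tested members was 0.49. Without control library 2 there were 16 higher, where 13.7% of all tested genes rose, and 1 lower, Pcdhgc4. RLE and upper-quartile scaling each gave the same 7 (10.1% and 9.5% of all tested genes), total-count scaling 5 of them (7.69%), no filter 8 of 53 (7.81%), a stricter filter 7 of 40 (11.4%) and the replicate block 9 (8.65%). Without control library 3 and knockout libraries 1, 2 and 3 in turn, 3, 1, 2 and 3 genes were higher, where 4.62%, 3.24%, 3.1% and 4.57% of all tested genes rose. With knockout library 1 left out, the gene called was Pcdhgc3.

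Of 12 non-clustered protocadherins, which are separate genes outside the clusters and share no exons, 9 were tested. How near each lies to the clusters was not examined. Of these, 3 rose and 0 fell, beside 11.1% and 13.9% of all tested genes, with a median log2 fold change of 0.45. Pcdh9 had 5.01, 6.69 and 6.37 CPM in controls, against 10.9, 10.6 and 11.7 CPM in knockouts (edgeR adjusted p = 0.00673). Pcdh1 had 5.91, 9.25 and 8.59 CPM against 14.9, 14.1 and 13.0 CPM (adjusted p = 0.0135, lost without knockout library 1 or 2 at 0.0613 and 0.0554). Pcdh7 had 16.9, 23.3 and 22.0 CPM against 31.5, 30.9 and 26.7 CPM (adjusted p = 0.028, lost without control library 3 at 0.069 and without knockout library 1 or 2 at 0.105 and 0.104). In all 3 the knockouts lay above every control.

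The list of cluster regulators had 28 genes, all tested, of which 4 rose and 3 fell, with a median of 0.10. These counts are near the 11.1% and 13.9% of all tested genes that rose and fell. Dnmt3b, a de novo DNA methyltransferase that methylates clustered protocadherin promoters, fell from 59.1, 103 and 96.8 CPM to 38.0, 37.2 and 42.2 CPM (-1.14 ± 0.19 SE on the log2 scale, edgeR adjusted p = 0.00431). Ctcfl, a germ-cell relative of Ctcf, fell from 2.69, 5.13 and 6.91 CPM to 0.455, 0.47 and 1.26 CPM (adjusted p = 0.00514). Ehmt2, a histone H3 lysine methyltransferase, fell by 0.58 on the log2 scale (adjusted p = 0.00279).

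Ctcf itself, which anchors the loops at these promoters, had 122, 139 and 125 CPM in controls, against 152, 161 and 165 CPM in knockouts. It rose by a small amount (0.31 ± 0.0926 SE on the log2 scale, edgeR adjusted p = 0.0401). This call was lost under 8 of 15 alternatives, RLE and total-count scaling, no filter and the block among them (adjusted p = 0.0518, 0.0741, 0.061 and 0.079), and when control library 3 or a knockout library was left out (0.0944 to 0.144). Tet1, a 5-methylcytosine dioxygenase, rose from 16.5, 31.3 and 21.8 CPM to 42.7, 40.5 and 39.9 CPM (adjusted p = 0.0183, with 0.0552 to 0.0762 when control library 3 or a knockout library was left out). Tet2, of the same family, rose by 0.78 on the log2 scale and is named after its values were seen. The listed genes Dnmt1 (-0.32, edgeR adjusted p = 0.147), Dnmt3a (0.39, 0.0791) and Tet3 (0.23, 0.432) were not called. Dnmt3a thus lay in the direction opposite to Dnmt3b, with all knockouts above all controls. Smchd1, a repressor of these clusters, had 138, 252 and 199 CPM against 158, 159 and 176 CPM, with overlap (-0.25, adjusted p = 0.349). It was called lower with control library 1 left out (-0.48, adjusted p = 0.00499) and with the length trend removed (adjusted p = 0.00226). Tdg, a DNA glycosylase of the demethylation pathway that the study's title names, was level at 92.8, 95.7 and 86.9 CPM against 95.3, 89.2 and 92.3 CPM. Its log2 fold change was 0.01 with TMM scaling and -0.06 with total counts. Among the cohesin genes, Rad21, Smc1a, Smc3, Stag1, Stag2 and the loader genes Nipbl and Mau2 did not pass, and Nipbl was nearest (0.61, adjusted p = 0.0553).

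Among 21 genes for proteins that bind or process clustered protocadherins, 2 rose and 1 fell, with a median of 0.11. Both shares lie under the 11.1% and 13.9% of all tested genes that rose and fell. Wasf2, of the actin-regulating WAVE complex, rose by 0.38 (edgeR adjusted p = 0.0399), and Nlgn1, a neuroligin, by 0.57 (adjusted p = 0.0474). Pdcd10 fell by 0.37 on the log2 scale (adjusted p = 0.0257). The Nlgn1 call was lost under 12 of 15 alternatives, the Wasf2 call under 8 and the Pdcd10 call under 5, with the highest adjusted p at 0.173, 0.146 and 0.126. Ret, a receptor tyrosine kinase that phosphorylates alpha and gamma protocadherins and that spermatogonial stem cells use for GDNF, had 46.9, 52.2 and 62.4 CPM against 52.0, 45.5 and 47.4 CPM (-0.15, adjusted p = 0.374). It passed with the length trend removed (-0.30, adjusted p = 0.046).

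Marker genes of the testis cell types were measured in the same libraries. Their counts stand beside 11.1% of all tested genes that rose and 13.9% that fell. Of 14 germ-cell markers 11 fell, with a summed level of 1230 to 1586 CPM in the controls and 469 to 597 CPM in the knockouts. The 3 not called were Zbtb16, Gfra1 and Id4, with log2 fold changes of -0.78, 0.29 and 0.23 and overlapping groups. The loss was thus not uniform over the list. Ddx4, which encodes a helicase found throughout the germ line, fell from 167, 220 and 202 CPM to 75.5, 71.3 and 90.9 CPM (-1.31 on the log2 scale, edgeR adjusted p = 0.000602). Of 12 Sertoli cell markers 6 rose, with sums of 2644 to 3533 CPM and 3816 to 4145 CPM. Sox9, the Sertoli cell fate gene, rose by 0.44 (adjusted p = 0.028, with 0.0823 to 0.106 when control library 3 or a knockout library was left out). Of 8 stroma markers 5 rose (4920 to 5660 CPM, then 7430 to 7595), and of 8 Leydig cell markers 2 (642 to 1176, then 1282 to 1305). Control library 1 stood apart here too: its Leydig cell sum was 1176 CPM against 649 and 642 CPM in the other controls, and its Sertoli cell sum was 3533 against 2770 and 2644 CPM. Cyp17a1, a steroid-synthesis enzyme of Leydig cells chosen after its values were seen, had 200 CPM there, 32.9 and 20.2 CPM in the other controls and 193 to 258 CPM in the knockouts. This was also the control with the lowest CPM for most gamma genes, and the bearing of one on the other was not tested.

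Endothelial markers rose in 4 of 7 (199 to 229 CPM, then 281 to 306) and macrophage markers in 2 of 6 (76.4 to 85.8, then 106 to 123). Of 7 myoid markers 1 rose and 0 fell (1566 to 1614, then 1642 to 1697), beside 11.1% and 13.9% of all tested genes. The myoid genes did not move together: 4 had a log2 fold change above 0 and 3 below. These 3 were Acta2, Tagln and Cnn1, at -0.15, -0.18 and -0.28, and in Cnn1 all knockouts lay below all controls. Of 6 rete and duct markers 0 passed with edgeR (12.04 to 23.9, then 19.6 to 31.7). At an unadjusted p under 0.05 there were 2 of these 6, beside 39.1% of all tested genes. Of 12 nerve and glia markers, chosen because the clusters are best known in neurons, 9 were tested, 2 rose and 2 fell (79.6 to 99.7, then 110 to 118). Mbp, a myelin gene, rose by 0.65 on the log2 scale, while Sox10 and Elavl3 fell, by 0.75 and 2.52 on the log2 scale. Levels of the neuronal markers differed widely. Snap25 had at most 0.325 CPM in any library, while Syt1 had 4.70 to 8.83 CPM. Elavl4, Stmn2 and Rbfox3 had means of 0.795, 0.829 and 0.960 CPM, and Elavl3 had 2.22 to 3.07 CPM in controls. No marker of these lists was at 0 in every library. As with the gamma and beta sums, all knockouts lay above all controls in the summed markers of each somatic list but rete and duct, and below them for the germ-cell list, and the part of cell makeup in the changes of the protocadherin genes was not tested.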

How the data were processed

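The authors deposited 1 table for the series, with an estimated count and an FPKM per gene and library; per the submitters' processing notes, StringTie 1.3.1 and RSEM were used, without stated roles. For the aligner, genome build, annotation and strand setting: not given in the sources used here. No coordinates are given for this reason. The authors deposited these counts as whole numbers, and they were taken as rounded estimated counts, since a count of 0 stood beside a positive FPKM for 3 to 21 genes in each library. The FPKM values that the authors deposited, scaled to transcript length and depth, were used for levels between genes and implied lengths, with no test.

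A symbol was found for 22219 of 22274 Ensembl IDs. Genes were filtered with filterByExpr of edgeR 4.0.16 (minimum count 10), which left 14424, with 0.063% of the counts in the genes removed. TMM factors were used for scaling, and counts were tested with edgeR's quasi-likelihood test without covariates (R 4.3.3), with Benjamini-Hochberg adjustment over all tested genes and a threshold of 0.05. The SE is the log2 fold change divided by the square root of F. Log2 fold changes are knockout over control. The procedure was tested on simulated counts with a fixed dispersion and no length trend. That test does not cover the length trend or the spread between controls seen in these libraries. One count was worth 0.0528 to 0.0664 CPM.

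The members and gene lists were chosen with earlier results of these data known. The lists were non-clustered protocadherins, cluster regulators, protein partners and the markers of germ, Sertoli, Leydig, myoid, stroma, endothelial, macrophage, nerve and glia, and rete and duct cells. Genes were named by rule: members past the threshold, per cluster the 4 of highest level and the 2 largest changes each way among tested genes, the C-type genes, and fixed or most significant genes of the lists. Alternatives were DESeq2 1.42.0, voom of limma 3.58.1, RLE, upper-quartile and total-count scaling, filtering omitted or made stricter (a CPM of 1 or more in 3 libraries), the replicate number as a block, and each library left out. Those added after seeing the data were the length trend removed (lowess, span 0.3), sums without Pcdhgc4, and the rows matching by deposited name. Values of some genes counted in these lists are not reported here.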

Additional observations from a re-analysis of the deposited data

How the results depend on the processing

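Counts of single genes limit these results, since 38 of the 42 tested members had under 200 counts in every library, and 5 of the 6 settings that left out a library lost calls among the 7, while leaving out control library 2 lost 0 and added 10. Over the 6 settings that leave out a library each, 452 to 2392 of all genes were called higher and 903 to 2863 lower. For the gamma cluster 1 to 13 genes were higher and 0 to 1 lower, and for the beta cluster 0 to 3 were higher. The gamma count was 11 with DESeq2, 9 with limma-voom, 8 with the replicate block and 8 with the length trend removed, against 5, and the beta count was 1 with total-count scaling and 1 with the replicate block, against 2. Among rows whose deposited name matched the pattern, 0 of 5 tested genes passed with edgeR, and 1 had an unadjusted p under 0.05, beside 39.1% of all tested genes. The log2 ratio of the gamma sum was 0.44 with total-count scaling, 0.23 on FPKM, 0.75 without Pcdhgc4, 0.55 without Pcdhgc4 and control library 1, and 0.34 for Pcdhgc3 and Pcdhgc4 together, against 0.50, and 0.47 to 0.52 with a library left out. The cause of these moves was not tested. The beta and alpha sums moved by less than the spread between replicates. Signs turned for 4 of the named genes, none of them called in either case. Without a library each, Pcdhb3 ranged from -0.1664 to 0.03471, Pcdhb6 from -0.3308 to 0.2441, Pcdhgc5 from -0.2282 to 0.6792 and Tdg from -0.03006 to 0.0331. Tdg also turned with DESeq2 (-0.009156), RLE (-0.009004), upper-quartile (-0.0186) and total-count scaling (-0.05786) and without a filter (-0.001066). No pairing by replicate number was seen: same-numbered libraries had deviations correlated at -0.0719, -0.0781 and 0.0695, and no sample correlated best with its own number. With so few libraries this cannot exclude a pairing. With the block, 9 members were called, 6 of them among the 7.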
